A study of Homo sapiens with 20 samples.

Results

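The respiratory chain is the set of protein complexes in the inner mitochondrial membrane that moves electrons to oxygen and pumps protons. Complex I oxidises NADH, complex II oxidises succinate, complex III passes electrons to cytochrome c, complex IV hands them to oxygen, and complex V uses the proton gradient to make ATP. Most of their subunits are encoded in the nucleus and a few in mitochondrial DNA, and dedicated assembly factors, which are not part of the finished enzymes, insert the cofactors and join the modules. The members are the genes whose symbol begins with NDUF, SDHA to SDHD, UQCR, UQCC, ATP5, or COX followed by a number, and which have at least 1 probe set annotated to that gene alone. The brightest probe set over all arrays stands for the gene. There are 110 such genes, with 192 probe sets, among 19355 genes in all: 77 encode subunits, 27 encode assembly factors (NDUFAF, SDHAF, UQCC, and COX10 and above), and 6 are noncoding or pseudogene entries. Of the 118 protein-coding genes in the gene table that match the symbols, 104 have such a probe set, and the others, SDHA, SDHB and UQCRFS1 among them, are not analysed here. COX1 and COX2 are here the mitochondrially encoded subunits of complex IV.

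RNA of human HEK293 cells, an embryonic kidney line, was measured on 20 Affymetrix U133 Plus 2.0 arrays in 4 groups of 5. All cells derive from the Flp-In T-REx line, in which doxycycline switches on an inserted transgene. Induced cells carried EGFP-ZFP36 and received doxycycline at 1 µg/ml for 16 h, mock-induced cells were the same stable line given water, and the parental cells, without the transgene, received either doxycycline or vehicle. ZFP36 (tristetraprolin) is an RNA-binding protein that binds AU-rich elements and promotes mRNA decay. For the transgenic line, cells of 5 pooled flasks were sorted, GFP-positive cells for the induced arrays and cells without fluorescence for the mock-induced arrays, and the methods describe lower confluence and more rounded or floating cells in the doxycycline flasks. The transgene, the sort gate and the cell density therefore cannot be told apart between induced and mock-induced arrays. The methods also give the transgenic and the parental cells different dilutions at passage and different growth times before treatment. Line and culture therefore cannot be told apart where the lines are compared. The work was repeated on 5 days, and p-values measure the spread between these repeats.

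The deposited values are log2 GCRMA levels between 2.19, the floor, and 16.6. A gene was tested if a group mean lay above 4.5 (10834 genes, 100 of them members), and it was called where the Bonferroni-adjusted p of limma over all genes tested was under 0.01. "Rose", "fell", "higher" and "lower" of a named gene below mean that it was called, except where a value is given as not called. The ZFP36 probe set, at 5.42 ± 0.49 in induced cells and 5.36 ± 0.43 in mock-induced cells (SD, n = 5 each), does not check the induction, and no source used here says whether the fusion transcript carries its target. Poly-A spike-in controls averaged 8.80 ± 0.24 on induced arrays and 8.43 ± 0.18 on mock-induced arrays, and hybridization controls averaged 12.19 ± 0.10 on induced arrays and 12.07 ± 0.12 on mock-induced arrays. The median log2 change of all tested genes after induction was 0.20 as deposited, -0.16 with each array centred on the poly-A controls and 0.08 with centring on the hybridization controls. Of 7 tested HEK293 markers NEFL, NEFM and PAX2 rose and LIN28B fell after induction, while VIM, INA and SALL1 were not called. PAX2 passed the filter only through induced cells (4.86 ± 0.44, against 2.77 ± 0.01 in mock-induced cells), and LHX1 stayed under 4.5. The 7 measured blood markers, PTPRC among them, also stayed under 4.5. Of 10 fibroblast and endothelial markers COL1A1 and COL3A1 were tested and both rose. The other 8, with the defining PECAM1, CDH5 and DCN, stayed under 4.5. The part of COL1A1- or COL3A1-expressing cells in the results was not tested. NEFM, a neurofilament gene among the HEK293 markers, read 3.87 ± 0.28 in mock-induced cells and 12.27 ± 0.10 in parental vehicle cells, and its part in the differences between the lines was not tested. Parental vehicle replicate 4 held the lowest or highest value of its group by a wide gap for 6 named members, and the main results on that group are also given without it. That array also had the largest excess of 3' over 5' control probe sets of all arrays, for GAPDH (0.43) and actin (2.18). The part of RNA quality in its values was not tested.

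After induction the members moved in both directions, with large falls in single subunits of complexes I, II and V and rises in most assembly factors of complex IV. Of 100 tested members 48 were called, against 51.9% of all genes tested: 31 rose, where 28.8% of all genes did, and 17 fell, where 23.1% of all genes did. The called members numbered 41 with centring on the hybridization controls (21 rose, 20 fell), and 26 with centring on the poly-A controls (6 rose, 20 fell), so the balance of rises and falls depends on the scaling. Centring shifts every gene on an array alike, so such counts are not particular to the members. Where no share of all genes stands beside a count under another setting, here and below, the count only checks the main one. The median log2 change of the members was 0.28, beside 0.20 for all genes, and -0.086 beside -0.16 with the poly-A controls. The induced and mock-induced arrays did not overlap for 85 members, where 80.0% of all genes did not overlap. With the replicate number as a block 13 members rose and 12 fell, although no label says that a number marks a day. Without any 1 array the count of called members lay between 37 and 42. The count of rises was 20 without induced replicate 1 or 2 or mock-induced replicate 3, 4 or 5, and that of falls lay between 17 and 19.

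**Figure D1:**
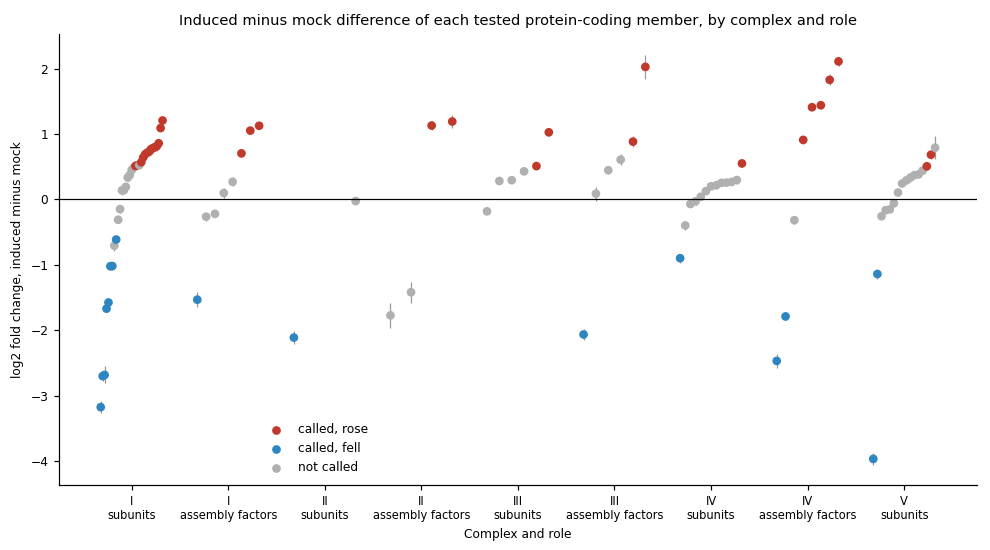
Log2 fold change, induced minus mock-induced, of the tested protein-coding members (points) with the standard error of limma (bars), by complex and role. Red and blue points passed the test and grey points did not: 22 of 33 complex I subunits and 7 of 8 complex IV assembly factors are coloured, against 2 of 13 complex IV subunits.

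By role, 19 subunits rose and 12 fell of 70 tested (27.1% and 17.1%), and 12 assembly factors rose and 4 fell of 26 tested (46.2% and 15.4%), beside 28.8% and 23.1% of all genes. With the hybridization controls the counts were 10 and 13 for subunits and 11 and 6 for assembly factors, and with the poly-A controls 1 and 13 for subunits and 5 and 6 for assembly factors. The median size of the change was 0.47 for subunits and 1.13 for assembly factors on the log2 scale, beside 0.84 for all genes. Complex I held most of the changes, with 17 rises and 9 falls among 41 genes. Complex II had 2 rises and 1 fall among 6, complex III 4 and 1 among 12, complex IV 6 and 3 among 21, and complex V 2 and 2 among 16. With the poly-A controls the 6 rises were NDUFA10, COX10, COX15, COX19, COX20 and UQCC2, of which 5 are assembly factors.

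**Figure D2:**
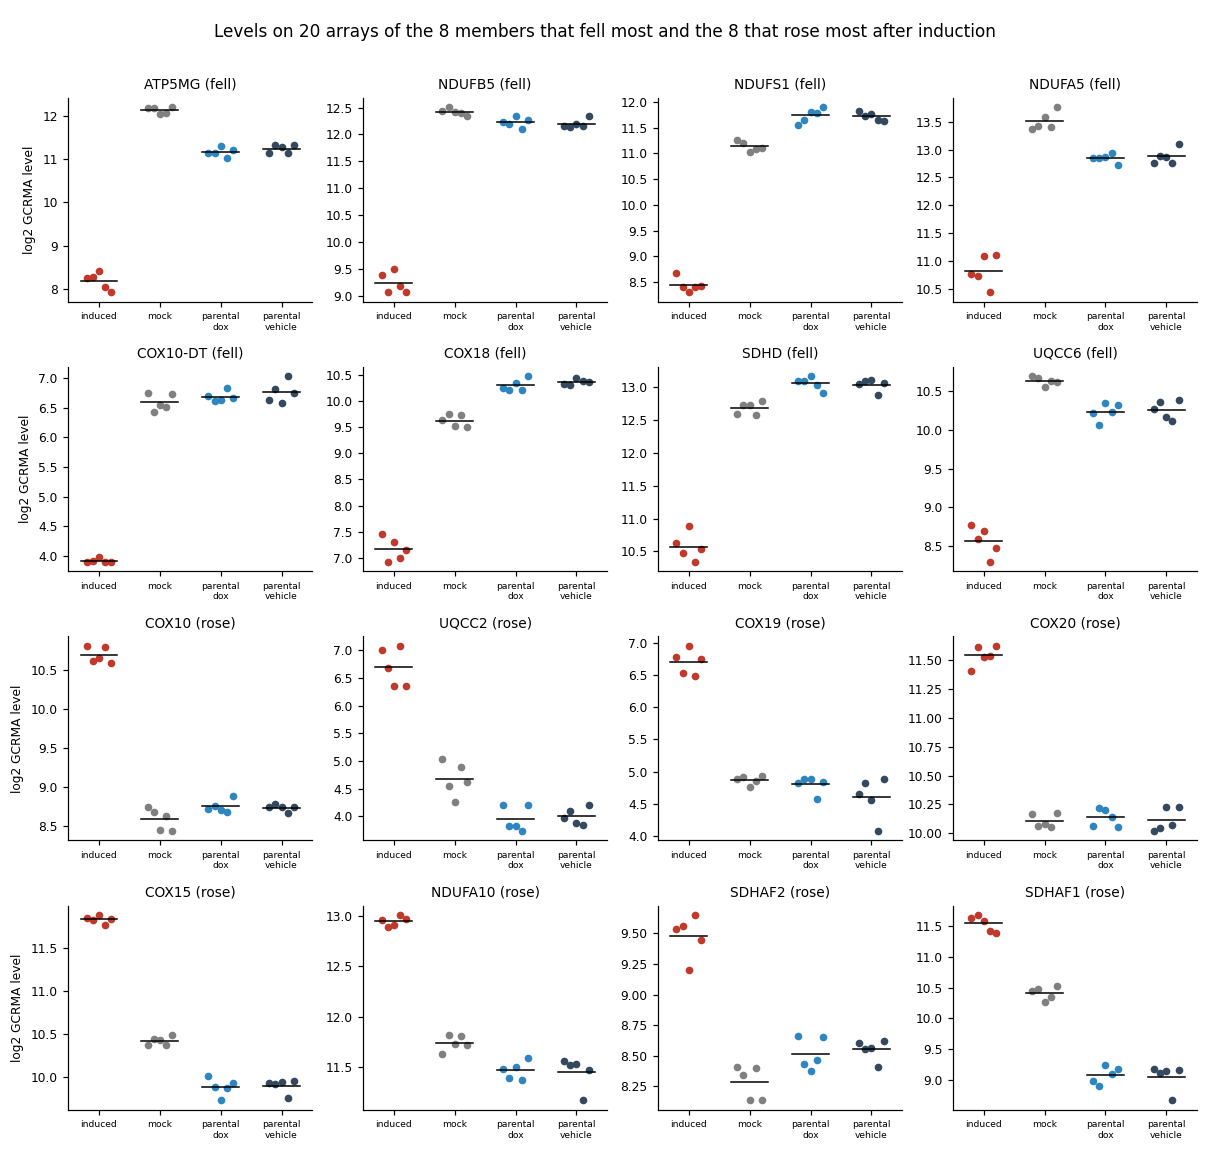
Log2 GCRMA levels on all 20 arrays of the 8 members with the largest falls (upper rows) and the 8 with the largest rises (lower rows). Points are arrays, lines are group means, and the vertical scales differ: in every panel the 5 induced arrays lie apart from the other 15.

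In complex I, whose L-shaped body joins a matrix arm for NADH oxidation to a membrane arm for proton pumping, 14 subunits rose and 8 fell of 33. NDUFB5, an accessory subunit of the membrane arm, read 9.39, 9.07, 9.51, 9.20 and 9.07 on the induced arrays, against 12.43, 12.51, 12.41, 12.41 and 12.35 on the mock-induced arrays. No induced array came near the mock-induced range, and the level fell 9.02-fold (log2 fold change -3.17, SE 0.09, adjusted p = 1.34e-08). NDUFS1, the largest iron-sulphur subunit of the matrix arm, read 8.67, 8.40, 8.30, 8.41 and 8.42 in induced cells, against 11.26, 11.21, 11.04, 11.09 and 11.10 in mock-induced cells. It fell 6.50-fold (adjusted p = 1.16e-08), and its other tested probe sets fell by 4.34 and 3.64 on the log2 scale.

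NDUFA5, an accessory subunit of the matrix arm, read 10.77, 10.73, 11.09, 10.44 and 11.11 in induced cells, against 13.37, 13.43, 13.58, 13.40 and 13.76 in mock-induced cells. The fall was 6.42-fold (adjusted p = 6.2e-06), although mock-induced cells stood above the parental vehicle arrays, whose mean was 12.88. NDUFB6 and NDUFB3, further subunits of the membrane arm, fell 3.18-fold and 2.98-fold. The remaining subunits that fell were NDUFC1, NDUFB4 and NDUFAB1, the mitochondrial acyl carrier protein, which lost 0.61 on the log2 scale.

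With centring on the hybridization controls 9 complex I subunits rose and 9 fell, and with the poly-A controls 1 rose and 9 fell. NDUFA10, an accessory subunit on the matrix face of the membrane arm, read 12.96, 12.89, 12.91, 13.01 and 12.97 in induced cells, against 11.63, 11.82, 11.73, 11.81 and 11.72 in mock-induced cells. Its rise of 1.21 (SE 0.05, 2.31-fold, adjusted p = 7.69e-07) was the largest of any subunit, and the 2 groups did not overlap. The other subunits that rose did so by between 0.51 (NDUFA12) and 1.09 (NDUFV3), and they include the flavoprotein subunit NDUFV1 and the iron-sulphur subunits NDUFS3 and NDUFS7. Other tested probe sets of NDUFV3 and NDUFS7 differed by -0.11 and -0.07 and were not called, while that of NDUFA6 rose by 2.02. Within the NDUFB series, which lies in the membrane arm, 4 of 11 genes rose and 4 fell as deposited, 1 rose and 4 fell with the hybridization controls, and 0 rose and 4 fell with the poly-A controls. Within the numbered NDUFA series 6 of 12 rose and 1 fell as deposited, 5 and 2 with the hybridization controls, and 1 and 2 with the poly-A controls. On both poly-A and hybridization scaling the falls of NDUFB5, NDUFS1 and NDUFA5 and the rise of NDUFA10 were still called.

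Among 8 complex I assembly factors NDUFAF2, NDUFAF6 and NDUFAF7 rose, by 0.70, 1.13 and 1.05, and NDUFAF3 fell. Another probe set of NDUFAF7 differed by 0.41 and was not called. NDUFAF3 works with NDUFAF4 in building the part of the matrix arm that docks on the membrane. NDUFAF3 read 9.86, 9.69, 9.60, 9.83 and 9.20 in induced cells, against 11.21, 11.30, 11.18, 11.13 and 11.03 in mock-induced cells, a 2.89-fold fall (adjusted p = 0.000542). NDUFAF4 itself differed by -0.22 and was not called by its brightest probe set, while a dimmer one, chosen after its value was seen, fell by 2.01.

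Sites bound by ZFP36 were mapped in the same study by PAR-CLIP, in which crosslinked RNA is pulled down with the protein and sequenced. In the part of the site table held here, 4 members carry a cluster. They are printed because binding sites are where ZFP36 meets these transcripts. Coordinates are on hg19 as the table gives them (end minus start equals the number of letters, so starts appear to count from 0), the strand is that of the transcript, and capitals mark every ATTTA or TATT, the DNA spelling of the AU-rich pentamer and of the site of 1 zinc finger.
NDUFB6, 3' UTR, chr9:32553809-32553832, minus strand: ttcctaTATTaccaTATTTActg
NDUFAF3, 3' UTR, chr3:49060688-49060711, plus strand: cttatcaacataataATTTAtac
NDUFS4, 3' UTR, chr5:52979117-52979144, plus strand: tataataaatacatctcttaatctcct
UQCRQ, intron, chr5:132203157-132203179, plus strand: tttactctcttaatttttaaag

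In NDUFB6 and NDUFAF3 the clusters hold the pentamer and lie in the 3' UTR, and both genes fell. NDUFB6 read 11.71, 11.60, 11.83, 11.67 and 11.67 in induced cells, against 13.35, 13.49, 13.31, 13.29 and 13.39 in mock-induced cells (log2 fold change -1.67, SE 0.06, adjusted p = 1.46e-07). The clusters of NDUFS4, which encodes an accessory subunit of the matrix arm, and of UQCRQ, a small complex III subunit, hold neither run of letters. Their differences, -0.15 and 0.29, were not called. With 4 genes and a table held only in part, this stands as a description, and the other members that fell have no cluster in that part.

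Complex II, which joins the citric acid cycle to the chain and has no mitochondrially encoded subunit, was represented by its membrane anchors SDHC and SDHD and by 4 assembly factors. SDHD read 10.63, 10.47, 10.88, 10.34 and 10.54 in induced cells, against 12.60, 12.73, 12.73, 12.57 and 12.79 in mock-induced cells. The levels did not overlap and fell 4.32-fold (log2 fold change -2.11, SE 0.09, adjusted p = 2.32e-06). SDHC, its partner in holding the haem, averaged 13.37 ± 0.09 with induction and 13.39 ± 0.05 without it, and was not called.

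The factors that mature the soluble part of complex II gave rises for SDHAF1 and SDHAF2. SDHAF2, which attaches the flavin to SDHA, read 9.54, 9.56, 9.20, 9.65 and 9.44 in induced cells, against 8.41, 8.35, 8.13, 8.40 and 8.14 in mock-induced cells. SDHAF1, which protects the iron-sulphur subunit SDHB, read 11.63, 11.68, 11.59, 11.43 and 11.39 in induced cells, against 10.44, 10.47, 10.27, 10.35 and 10.53 in mock-induced cells. These are rises of 1.19 (SE 0.09, adjusted p = 0.000743) and 1.13 (SE 0.07, adjusted p = 0.000103), and neither was called with centring on the poly-A controls (adjusted p = 0.0125 for SDHAF2 and 0.0734 for SDHAF1). SDHAF3 and SDHAF4 differed by -1.77 and -1.42 and did not pass the threshold (adjusted p = 0.0258 and 0.0346).

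In complex III the core subunits UQCRC1 and UQCRC2 rose, by 1.03 and 0.51, and no subunit fell. The assembly factors diverged. UQCC6, a small protein needed for complex III assembly, read 8.77, 8.59, 8.70, 8.30 and 8.47 in induced cells, against 10.69, 10.67, 10.55, 10.63 and 10.61 in mock-induced cells. It fell 4.18-fold (adjusted p = 8.41e-07), and its other tested probe set fell by 2.03 on the log2 scale.

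UQCC2, which with UQCC1 is needed for the synthesis of mitochondrially encoded cytochrome b, read 7.00, 6.69, 6.35, 7.09 and 6.35 in induced cells, against 5.04, 4.54, 4.25, 4.89 and 4.62 in mock-induced cells. The mock-induced values straddle the limit of 4.5, and the rise was 2.03 (SE 0.18, 4.07-fold, adjusted p = 0.0035). Without any of induced replicates 1, 2 and 4 or mock-induced replicates 2, 3, 4 and 5 the adjusted p lay between 0.0105 and 0.0249, above the threshold. UQCC3 rose by 0.88, and UQCC1, UQCC4 and UQCC5 were not called.

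Complex IV showed the widest gap between roles. Of 8 tested assembly factors 5 rose and 2 fell, and of 13 tested subunits 1 rose (COX5B, by 0.55) and 1 fell (COX7A2L, which encodes a factor that joins complexes into supercomplexes, by 0.90). The median size of the change was 1.61 for the assembly factors and 0.25 for the subunits. The remaining assembly factor, COX16, differed by -0.32.

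The factors for haem A rose together. COX10, the haem O synthase, read 10.82, 10.62, 10.66, 10.80 and 10.59 in induced cells, against 8.74, 8.69, 8.46, 8.63 and 8.44 in mock-induced cells. COX15, which turns haem O into haem A, read 11.85, 11.83, 11.88, 11.76 and 11.83 in induced cells, against 10.37, 10.45, 10.43, 10.38 and 10.49 in mock-induced cells. The groups are far apart for both genes, with rises of 2.11 (SE 0.08, 4.32-fold, adjusted p = 2.22e-07) and 1.41 (SE 0.04, 2.66-fold, adjusted p = 3.86e-08).

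COX20, a chaperone of newly made COX2, read 11.41, 11.62, 11.53, 11.54 and 11.63 in induced cells, against 10.16, 10.06, 10.08, 10.05 and 10.17 in mock-induced cells, and rose 2.71-fold (adjusted p = 3.34e-07). COX19, which takes part in copper delivery, read 6.77, 6.54, 6.95, 6.48 and 6.75 in induced cells, against 4.89, 4.91, 4.77, 4.85 and 4.94 in mock-induced cells, and rose 3.55-fold (adjusted p = 3.89e-06). Both rises were called with either set of control probe sets. They rest on the brightest probe set, since the others of COX20 differed by 0.16 and 0.91 and that of COX19 by 0.51, none of them called. COX18, which inserts a tail of COX2 through the membrane, went the other way, with 7.44, 6.92, 7.30, 6.98 and 7.15 in induced cells, against 9.63, 9.75, 9.52, 9.73 and 9.50 in mock-induced cells. It fell 5.53-fold (adjusted p = 1.04e-06). COX11, a copper carrier to COX1, also fell, by 1.79, and COX14, which acts in COX1 assembly, rose by 0.91.

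COX10 shares its promoter region with COX10-DT, a noncoding transcript that runs the opposite way on chromosome 17, and their RefSeq start sites lie 46 bases apart (GRCh38.p14). COX10-DT read 3.90, 3.91, 3.99, 3.90 and 3.90 in induced cells, against 6.74, 6.42, 6.54, 6.50 and 6.73 in mock-induced cells. All induced arrays lie under 4.5, so it was at least 4.25-fold lower (adjusted p = 5.59e-09), while COX10 rose on the same arrays. The window of COX10 is printed because both starts fall within it. It runs 250 bases before to 50 bases after the COX10 start, on the plus strand at chr17:14069254-14069553. Capitals mark CCGGAAG, the core of ETS family sites, and AAGATGGCG, a YY1 site, on either strand.
COX10: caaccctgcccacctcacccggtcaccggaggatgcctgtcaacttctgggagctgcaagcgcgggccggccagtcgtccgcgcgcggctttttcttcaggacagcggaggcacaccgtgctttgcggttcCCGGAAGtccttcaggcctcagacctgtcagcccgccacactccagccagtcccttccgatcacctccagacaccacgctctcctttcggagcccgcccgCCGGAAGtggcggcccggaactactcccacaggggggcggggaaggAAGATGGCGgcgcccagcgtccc

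The other noncoding members stayed low. ATP5MC2P1, NDUFB2-AS1 and NDUFV2-AS1 differed by 0.42, 0.06 and 0.52 and were not called, and COX6A1P1 and NDUFV1-DT did not pass the filter. Pseudogene probe sets can share sequence with the parent genes ATP5MC2 and COX6A1, so these values are uncertain.

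Complex V gave the largest single change. ATP5MG, subunit g of the membrane part, which takes part in joining the enzyme into dimers, read 8.25, 8.26, 8.42, 8.04 and 7.92 in induced cells, against 12.19, 12.19, 12.04, 12.07 and 12.21 in mock-induced cells. The fall was 15.6-fold (log2 fold change -3.97, SE 0.09, adjusted p = 1.82e-09). ATP5IF1, the protein that blocks ATP hydrolysis by the enzyme, fell by 1.14 on its brightest probe set (adjusted p = 0.000359). A dimmer probe set of the gene rose by 0.98 (adjusted p = 0.0007) and a further one differed by -0.38, so its direction depends on the probe set. ATP5F1D and ATP5PD, subunits of the central and of the peripheral stalk, rose by 0.68 and 0.51. The other 12 tested subunits of complex V were not called, and among them ATP5F1A, the alpha subunit and the brightest, averaged 15.46 ± 0.04 on induced arrays and 15.08 ± 0.04 on mock-induced arrays (adjusted p = 0.0178).

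The brightest members changed least. Of 24 members with a mean level of 14 or more over the 20 arrays, 1 was called (NDUFA12) and changes ran between -0.40 and 0.51, while of 38 members between 12 and 14, 23 were called (60.5%, beside 58.0% of all genes at that level), and of 22 members between 10 and 12, 16 (72.7%, beside 66.2%). Between 8 and 10 the share was 62.5% of 8 members, beside 58.7% of all genes, and under 8 it was 37.5% of 8 members, beside 35.0%. Of all genes at 14 or more, 22.7% were called and 5.91% changed by over 1, which none of the 24 members did. The median size of the change at that level was 0.25 for members and 0.26 for all genes. Brightness differs between the roles, since all 24 are subunits, and its part in the smaller changes of subunits was not tested.

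**Figure D3:**
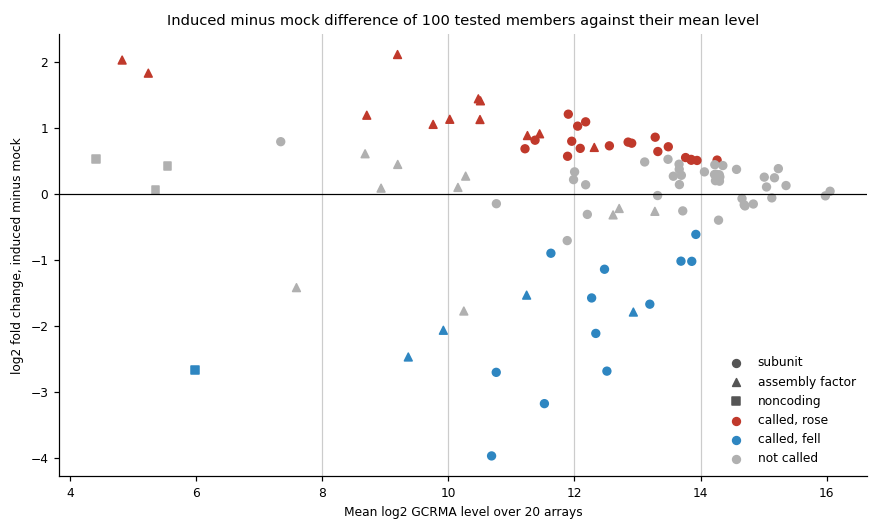
Log2 fold change, induced minus mock-induced, of the 100 tested members against their mean log2 GCRMA level over 20 arrays, with circles for subunits, triangles for assembly factors and squares for noncoding entries. The 24 members right of 14 lie within -0.40 and 0.51, while changes of over 1 lie to the left.

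The mitochondrially encoded subunits are transcribed by the mitochondrial RNA polymerase and not from nuclear promoters. COX2 averaged 16.08 ± 0.05 with induction and 16.03 ± 0.06 without it, COX1 differed by -0.03, and of the other mitochondrially encoded subunits with a probe set ND6, ATP6, ND4 and ND2 differed by -0.02, 0.16, 0.20 and 0.33. None of the 6 was called. In induced and mock-induced cells COX1, COX2 and ATP6 averaged within 1 log2 unit of the highest value in the files.

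Several complex IV subunits exist as a common form and a tissue-restricted form. The common forms COX4I1, COX6A1, COX6B1, COX7A2, COX7B and COX8A were detected in all groups and differed after induction by 0.26, 0.25, 0.30, -0.40, -0.07 and 0.27, none of them called. The restricted forms COX4I2, COX6A2, COX6B2, COX7A1, COX7B2 and COX8C stayed between 2.19 and 3.56 on every array, with no call possible. ATP5MC1, ATP5MC2 and ATP5MC3, 3 genes for the same mature c subunit of complex V, differed by 0.33, 0.44 and -0.15 and were not called.

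The choice of probe set mattered for some members. Besides the brightest, 82 further probe sets name 1 member alone, and 50 of them passed the filter, in 35 genes. Of all 150 tested member probe sets 60 were called, where 44.0% of all probe sets were. This test was run over all 18639 probe sets above the filter, so a brightest probe set can miss the call that its gene passed above. NDUFA12, with an adjusted p of 0.0287 in limma here, is such a case. Of the 50 others 8 rose and 11 fell, 9 of these 19 the same way as the brightest, 9 where the brightest was not called, and 1 the opposite way (ATP5IF1). A further 12 were not called where the brightest was, and for 19 neither was. The 9 without a call on the brightest comprise 7 falls and 2 rises.

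The following probe sets were chosen after their values were seen. A dim probe set of COX7B, a complex IV subunit, averaged 3.82 ± 0.63 with induction and 8.80 ± 0.16 without it, a fall to under the limit of 4.5 and at least 19.8-fold, while the brightest differed by -0.07. Dim probe sets of ATP5PB, of the peripheral stalk, and of UQCRB, of complex III, were at least 7.37-fold and 3.91-fold lower, with differences of 0.24 and -0.18 on the brightest. For ATP5MC3 a probe set averaged 6.37 ± 0.12 in induced cells and 10.45 ± 0.10 in mock-induced cells, while the brightest averaged 14.37 ± 0.04 in induced cells and 14.53 ± 0.02 in mock-induced cells. SDHC had a probe set that rose by 1.27 and another that fell by 1.59, with -0.02 on the brightest. The sources used here do not place these probe sets within the transcripts.

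Genes of the same pathway under other names moved in both directions as well. Of 43 tested further chain components and assembly factors 14 rose (32.6%, beside 28.8% of all genes) and 13 fell (30.2%, beside 23.1%), with a median of 0.35. CYCS, which encodes cytochrome c, fell to 10.23 ± 0.16 on induced arrays, against 14.65 ± 0.06 on mock-induced arrays, and HIGD1A, a factor of complex III and IV assembly, fell to 8.50 ± 0.12 on induced arrays, against 12.76 ± 0.05 on mock-induced arrays. The complex I factor ECSIT rose by 1.89, the complex IV factors SURF1 and SCO1 by 0.81 and 0.69, and CYC1, cytochrome c1 of complex III, by 0.64. Of 13 iron-sulphur cluster assembly genes 5 rose, the scaffold ISCU among them (0.48), and 5 fell (38.5% each), with FDX1, a ferredoxin, at 8.94 ± 0.14 on induced arrays and 12.03 ± 0.05 on mock-induced arrays.

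Of 24 nuclear regulators 8 rose and 6 fell, 33.3% and 25.0%, beside 28.8% and 23.1% of all genes. Among those that fell were GABPA, the ETS-family DNA-binding subunit of NRF-2 (by 2.31 on the log2 scale), NRF1 (by 0.76), which activates many nuclear respiratory genes, and TFAM (by 2.10), which packages mitochondrial DNA. Among those that rose were POLRMT, the mitochondrial RNA polymerase (1.42), POLG, the mitochondrial DNA polymerase (1.17), and PPARGC1A (1.23), a coactivator of mitochondrial biogenesis. YY1 differed by -0.36 and was not called.

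In RefSeq promoter windows of 300 bases (250 before and 50 after the start), found for 92 members, sites of these regulators were searched by letters on both strands. The NRF1 run GCATGCGC occurred in 19.6% of the members, against 3.68% of all 27305 genes with a window and 6.89% of the tested ones. The ETS core CCGGAAG occurred in 29.3% of members and 23.3% of tested genes, and the YY1 run AAGATGGCG in 13.0% of members and 5.08% of tested genes. By direction, NRF1 matches were in 5 of 27 members that rose and 4 of 15 that fell, ETS matches in 9 of 27 and 4 of 15, and YY1 matches in 6 of 27 and 1 of 15. A match is a run of letters and not a shown site, and the counts by direction are too small to set apart.

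In parental cells doxycycline moved the members little. None of the 100 was called, as none of all genes was (0%), and the largest difference was 0.20 (COX19, not called). An unadjusted p under 0.05 in limma was reached by 1 of the 100 members, COX7A2, and by 241 of all 10834 genes tested, so this count shows no response of the members. COX7A2 read 14.32, 14.24, 14.32, 14.30 and 14.28 on the doxycycline arrays, against 14.41, 14.44, 14.42, 14.45 and 14.46 on the vehicle arrays (difference -0.14, unadjusted p = 0.00267, adjusted p = 1). It was also the only member whose 2 groups did not overlap, where 0.203% of all genes did not. Without vehicle replicate 4 its difference was -0.14 (unadjusted p = 0.00414, adjusted p = 1), and it was still the only member without overlap, where 0.812% of all genes did not overlap. NDUFB3 came next, at 12.65 ± 0.12 with doxycycline and 12.79 ± 0.07 with vehicle (adjusted p = 1).

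The change with doxycycline was then compared between the lines in 1 model of all 20 arrays, as induced minus mock-induced minus the parental difference. It was called for 50 of 100 members, against 47.9% of all genes: 31 were positive, where 25.8% of all genes were, and 19 negative, where 22.1% were. Without parental vehicle replicate 4 the model called 48 members (31 positive, 17 negative). All 46 members called both here and after induction had the same sign. The same induced and mock-induced arrays enter both, and no parental difference of a member exceeded 0.20 in size. The shared sign therefore follows from how the term is built and is no separate evidence. The 4 further ones were NDUFA2, NDUFA8, SDHAF3 and UQCR10. For ATP5MG the difference between the lines was -3.89, for NDUFB5 -3.20, for COX10 2.09 and for UQCC2 2.07. With centring on the hybridization controls 20 members were called here (4 positive, 16 negative), and with the poly-A controls 11 (2 positive, 9 negative).

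Without doxycycline mock-induced cells differed from parental vehicle cells in 22 of 100 members, against 24.0% of all genes. These cells differ in line and in culture, and the part of each was not tested. In mock-induced cells 6 were higher (13.2% of all genes were) and 16 lower (10.9% of all genes were), with a median log2 difference of -0.10, beside 0.00 for all genes. The 2 groups did not overlap for 66 members, where 63.3% of all genes did not. Without parental vehicle replicate 4 the members called numbered 18 (5 higher, 13 lower), the median was -0.09, and 68 members did not overlap, where 68.6% of all genes did not. The lower ones included 10 of 41 complex I genes, and no complex I gene was called higher. Differences of complex I genes nevertheless ran both ways, between -0.92 and 0.71, and NDUFA5 averaged 13.51 in mock-induced and 12.88 in parental vehicle cells. With the hybridization controls the members called lower were NDUFAF3 and UQCC5, and with the poly-A controls there were none. The mock-induced arrays enter this comparison and the one after induction, so the values are given side by side only.

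SDHAF1 was the furthest up, with 10.44, 10.47, 10.27, 10.35 and 10.53 in mock-induced cells, against 9.18, 9.11, 9.15, 8.67 and 9.17 in parental vehicle cells, a difference of 1.36 (SE 0.10, adjusted p = 0.000514). ATP5MG, at 12.14 ± 0.08 in mock-induced and 11.25 ± 0.10 in parental vehicle cells, and COX6B1, at 14.59 ± 0.09 in mock-induced and 13.80 ± 0.05 in parental vehicle cells, were also higher. Without parental vehicle replicate 4, which read lowest for SDHAF1, the differences were 1.26 for SDHAF1, 0.86 for ATP5MG and 0.78 for COX6B1, all still called (adjusted p between 1.86e-05 and 0.00132). In induced cells SDHAF1 averaged 11.54 ± 0.13 and ATP5MG 8.18 ± 0.20, above and below both of these groups.

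UQCC5, another factor of early complex III assembly, was the furthest down, with 8.62, 8.45, 8.16, 8.30 and 8.03 in mock-induced cells, against 9.64, 9.62, 9.36, 9.65 and 9.35 in parental vehicle cells, a difference of -1.21 (SE 0.11, adjusted p = 0.00598). It was not called without any of mock-induced replicates 2, 3, 4 and 5 or any of parental vehicle replicates 1, 2, 3, 4 and 5 (adjusted p between 0.0151 and 0.0385). With the mean of all probe sets its difference was -0.42 and was not called (adjusted p = 0.102 in limma). Without the filter on expression it was not called either (adjusted p = 0.123 in limma). NDUFAF3 and NDUFAF5, which modifies an arginine of NDUFS7, were lower by 0.92 and 0.82. Without parental vehicle replicate 4 their differences were -0.95 (adjusted p = 0.00306) and -0.86 (adjusted p = 0.0014), and that of UQCC5 was -1.18 (adjusted p = 0.0368). Without any 1 array the members called between the lines numbered between 11 and 18. They numbered 11 to 14 without any 1 mock-induced array or without parental vehicle replicate 1, 2 or 5, and 15 and 18 without parental vehicle replicates 3 and 4. They numbered 3 with the hybridization controls and 0 with the poly-A controls, which read 8.43 ± 0.18 in mock-induced and 8.39 ± 0.63 in parental vehicle cells.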

How the data were processed

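Expression was measured on 20 arrays, 5 in each of 4 groups, grouped by the sample titles. The authors normalized the arrays with GCRMA and deposited log2 values, version not stated in the sources. These cover 50441 probe sets, of which 38070 name 1 gene in the platform annotation, 1423 name several, and control probe sets were left out. Arrays give no counts, and their number limits the precision. The brightest probe set stood for a gene, and genes with a group mean above 4.5 were tested with limma 3.58.1 in R 4.3.3 on the 2 groups compared (the interaction on all 20 arrays), with Bonferroni-adjusted p under 0.01 as in the study's methods. SE is limma's, SD is over 5 arrays. A fold is given as a bound, from 4.5, where all 5 arrays of the lower group lay under it. Promoters are from RefSeq (GRCh38.p14), and site sequences from the study's PAR-CLIP table. Python 3.11.15 with pandas 2.3.3 and matplotlib 3.10.9 drew the figures.

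Named are the 8 largest called falls and rises without overlap, members with a PAR-CLIP cluster, isoform families, the 3 largest called differences each way between the lines, the 2 smallest p in parental cells, the brightest member of each complex, members with probe sets called both ways, and noncoding entries. Other names were added after values were seen. The members and lists were chosen with earlier results of these data known.

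The alternatives were a Benjamini-Hochberg threshold, no filter or a limit of 6, the mean of all probe sets, only probe sets with a plain _at ending, centring on the median or on control probe sets, a separate spread for each group, all arrays in 1 model, the replicate number as a block, and leaving out each array.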

Additional observations from a re-analysis of the deposited data

Results flagged for a closer look

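Among the groups of 5 arrays of named members, 15 of 172 held an array far from the other 4, where chance gives about 5% of groups. That rate does not hold for probe sets at a near-constant level, where a small step is flagged. NDUFB2-AS1 read 5.33 on all other mock-induced arrays beside the flagged 5.26, and COX10-DT read 3.90 to 3.91 on the other induced arrays. Parental vehicle replicate 4 accounted for 6 of the 15. It was low for COX15 at 9.75, NDUFA10 at 11.17, SDHAF1 at 8.67, SDHD at 12.88 and NDUFV2-AS1 at 3.63, and high for NDUFB2-AS1 at 5.81. Parental doxycycline replicate 4 was low for COX19 at 4.58, NDUFB6 at 13.69 and NDUFB2-AS1 at 5.29. The others were parental vehicle replicate 5 for NDUFB5 (12.35, high), mock-induced replicate 1 for NDUFV2-AS1 (5.17, high) and NDUFB2-AS1 (5.26, low), mock-induced replicate 2 for ATP5MC1 (11.96, high), induced replicate 3 for COX10-DT (3.99, high) and induced replicate 5 for NDUFB2-AS1 (5.59, high).

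The change with doxycycline differed between the transgenic and the parental line for 21 named members, by the interaction term in limma over all 20 arrays. That term holds the induced minus mock-induced difference, for whose size many of these members were named, so it is no separate evidence. The differences were positive for COX10 (2.09), UQCC2 (2.07), COX19 (1.62), COX15 (1.42), COX20 (1.42), SDHAF2 (1.23), NDUFA10 (1.19) and SDHAF1 (1.10). They were negative for ATP5MG (-3.89), NDUFB5 (-3.20), NDUFS1 (-2.72), NDUFA5 (-2.65), COX10-DT (-2.59), COX18 (-2.41), SDHD (-2.13), UQCC6 (-2.04), NDUFB6 (-1.61), NDUFAF3 (-1.52), NDUFB3 (-1.44), ATP5IF1 (-1.05) and COX7A2L (-0.93).

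A further 10 probe sets outside the main measurement were called after induction where the brightest probe set of the gene was not, or was called the other way. They fell for COX7B (-4.98), ATP5PB (-4.38), ATP5MC3 (-4.09), UQCRB (-3.16), NDUFAF4 (-2.01), ATP5F1E (-1.94) and SDHC (-1.59), and rose for UQCC1 (1.37), another probe set of SDHC (1.27) and ATP5IF1 (0.98).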

How the results depend on the processing

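With a Benjamini-Hochberg threshold of 0.05, 90 members were called after induction (60 rose, 30 fell), 72 between the lines (27 higher, 45 lower in mock-induced cells) and 84 in the interaction. Of all 10834 genes tested, 9499, 8110 and 8831 were called in these comparisons at that threshold. The other counts of members in this section stand without the share of all genes and only check the main counts. Without the filter 18 rose, 11 were called between the lines (7 lower), and the median after induction was 0.23. With the mean of all probe sets 9 were lower between the lines, the median was 0.22, and ATP5F1E reversed to -0.92. With only probe sets whose ID ends in plain _at, 31 were called after induction (18 rose), 31 in the interaction and 9 lower between the lines, the median was 0.18, and ATP5IF1 and SDHC reversed to 0.98 and 1.27. Centring on the hybridization controls gave 3 between the lines (1 higher, 2 lower), 20 in the interaction and a median of 0.16. Centring on the poly-A controls gave 26 after induction (6 rose), 0 between the lines (0 higher, 0 lower), 11 in the interaction and a median reversed to -0.086. All 20 arrays in 1 model gave 37 between the lines (10 higher, 27 lower). Without each array in turn, between 20 and 25 rose after induction, and between 11 and 18 were called between the lines (7 to 13 lower). Parental cells gave 0 members under every alternative. The causes were not tested. The replicate number as a block gave 25 after induction (13 rose, 12 fell) and 1 between the lines (0 higher, 1 lower). The methods describe the repeats of the lines separately, so between the lines a shared number joins arrays without a stated link. The blocked count between the lines therefore does not check the main count there. Under it ATP5IF1, SDHAF1 and COX7A2L lost their call after induction (adjusted p = 0.0334, 0.0179 and 0.0598). The labels do not say that a number marks a day, and same-numbered arrays correlated by 0.02 to 0.22 for induction, -0.06 to 0.18 in parental cells and -0.02 to 0.11 between the lines, and 3, 2 and 2 of 5 correlated best with their own number. For single named members 946 of 1016 values kept their direction and side of the threshold, 45 lost and 22 gained a call, and 3 reversed. Members near the floor of 2.19 have no measurable change.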
